A study of Mus musculus with 12 samples.

Results

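The transcripts of the mitochondrial genome were examined in B16F10 cells, a mouse melanoma line grown in culture. The members are the 37 genes whose name in both deposited tables starts with mt-, out of 55421 genes in each table: 13 mRNAs, 2 ribosomal RNAs (rRNAs) and 22 transfer RNAs (tRNAs). The study compared a vector control (VC) with cells in which Bub1, a mitotic checkpoint kinase gene, was disrupted by CRISPR-Cas9 (Bub1KO), each with or without 8 Gy of radiation, and has 3 libraries in each of its 4 groups. Total RNA was taken with TRIzol and sequenced with a stranded kit after ribosomal RNA removal by probes (Ribo-Zero Plus). The sources used here do not give the vector, the guide, the number of Bub1KO clones or the time between irradiation and extraction. Nothing in the labels ties libraries to separate cultures, so the p-values below stand for the spread among these libraries alone, which may be technical.

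Mitochondrial DNA is a small circle that is transcribed on both strands into long precursors by POLRMT with its partner factors. Most mRNAs, both rRNAs and most tRNAs lie in the precursor called here the heavy-strand product (annotated on the plus strand), while mt-Nd6 and a minority of the tRNAs lie in the light-strand product (annotated on the minus strand). The tRNAs sit between the longer genes, and cutting them out by RNase P and RNase Z releases the neighbouring mRNAs. All the mRNAs code for membrane subunits of the respiratory chain and the ATP synthase. Long double-stranded RNA made where products of both strands pair is normally removed by the SUV3 helicase (Supv3l1) and the nuclease PNPase (Pnpt1), and is known to be sensed as foreign when it reaches the cytosol, which is why these transcripts bear on a study titled for double-stranded RNA and viral mimicry.

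The 12 libraries held 19380726 to 33087366 reads in genes. Bub1 was lower in the Bub1KO libraries at both doses, at 1565 to 1834 normalized reads against 2752 to 3185 in untreated VC, and at 886 to 1120 against 1461 to 1507 after irradiation. Pigment cell markers were high in every library, with Pmel at 88950 normalized reads or more. Of the 5 leukocyte markers used, Cd3e and Adgre1 were at 0 throughout and Ptprc at 1.29 or less, whereas Lyz2 and Cd68 were present, so that the summed list lay at 27.2 to 30.7 in untreated and 168.4 to 286.9 in irradiated libraries. The fibroblast and endothelial list summed to 69.1 to 159.9. The part of these cells in the results was not tested. Bub1KO untreated replicate 1 stood apart from its group: its chi-square per gene against the other 2 libraries was 57.8 and 54.9, against 8.38 between those 2. That library also had the lowest value of a GC gap, the median deviation of the GC-richest genes (top 25%) minus that of the GC-poorest (bottom 25%), at -0.72 log2, with 0.02 and 0.07 in its 2 partners, -0.38 to -0.15 in untreated VC and 0.09 to 0.35 in irradiated libraries.

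The first feature of the members was a gap in the map, for which the sequences are needed. Much of the mitochondrial stretch chrM:6390-11042 (4653 bases, GRCm38) is also present in nuclear DNA, as a row of 7 annotated pseudogenes on the minus strand of chromosome 1, chr1:24611535-24616197. Copies were sought among annotated transcripts alone, so this copied stretch is the span from the first to the last aligned base, and the DNA between the pseudogenes was not aligned. They match the mitochondrial mRNAs over their aligned length with 99.71% to 100% identity and lie in the same order, with a shift of 1 base along the row. Gm28661 copies 681 of the 684 bases of mt-Co2 with no difference, and the first 60 bases of both, given here to show this, cannot be told apart (chrM:7013-7072 and chr1:24615506-24615565; no base differs, so none is in capitals).
mt-Co2: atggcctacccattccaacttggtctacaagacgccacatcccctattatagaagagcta
Gm28661: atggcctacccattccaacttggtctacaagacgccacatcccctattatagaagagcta

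Gm10925 (mt-Atp6), Gm28437 (mt-Co3), Gm10222 (mt-Nd4l) and Gm28439 (the first 876 bases of mt-Nd4) were likewise identical over their alignments. A single base differs in each of the other 2 pairs. Counted from 1 at the 5′ end of the mitochondrial gene, with its base first, these are A1066T between mt-Co1 and Gm29216 and T3C between mt-Nd3 and Gm28438. The stretches around them follow, with the differing base in capitals (mt-Co1 chrM:6390-6413, Gm29216 chr1:24616165-24616188, mt-Nd3 chrM:9459-9481, Gm28438 chr1:24613097-24613119).
mt-Co1: ggaAttgttttatccaactcatcc
Gm29216: ggaTttgttttatccaactcatcc
mt-Nd3: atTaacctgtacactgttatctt
Gm28438: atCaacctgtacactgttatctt

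The first and last aligned bases of the row fall inside mt-Co1 and mt-Nd4. The one in mt-Nd4 is where the annotated Gm28439 ends, and whether the nuclear DNA goes on to match past it was not tested. The bases around both are printed with those outside the alignments in capitals: mt-Co1 at chrM:6360-6419 and mt-Nd4 at chrM:11013-11072.
mt-Co1: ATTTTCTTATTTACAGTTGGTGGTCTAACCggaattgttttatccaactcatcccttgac
mt-Nd4: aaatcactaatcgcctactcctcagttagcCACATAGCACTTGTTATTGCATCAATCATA

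Among the 13 mRNAs, 6 lay wholly inside the copied stretch and these 6 held almost no reads: mt-Co2 and mt-Co3 (cytochrome c oxidase), mt-Atp8 and mt-Atp6 (ATP synthase), and mt-Nd3 and mt-Nd4l (complex I). In normalized reads, mt-Co2 stood between 0 and 3.03 over the 12 libraries, mt-Co3 between 0 and 4.11, mt-Atp6 between 0 and 3.22 and mt-Nd3 between 0 and 3.03. mt-Atp8, which has no annotated copy of its own but lies between copied genes, held 3 reads, all in irradiated Bub1KO replicate 3, and mt-Nd4l held none. None of the 6 had more than 20 reads over all 12 libraries or more than 5 in any one, while each of the other 7 mRNAs had at least 389040. The 7 nuclear rows did not hold the reads either. Their highest values were 206.4 normalized reads for Gm28438, 143.7 for Gm10925, 140.5 for Gm28661, 140.3 for Gm29216, 77.4 for Gm28437, 10.3 for Gm28439 and 9.65 for Gm10222. The sources used here do not say how reads that match several places were treated, so these 6 mRNAs are read as not measured, not as low, and they failed the filter on low values.

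**Figure D1:**
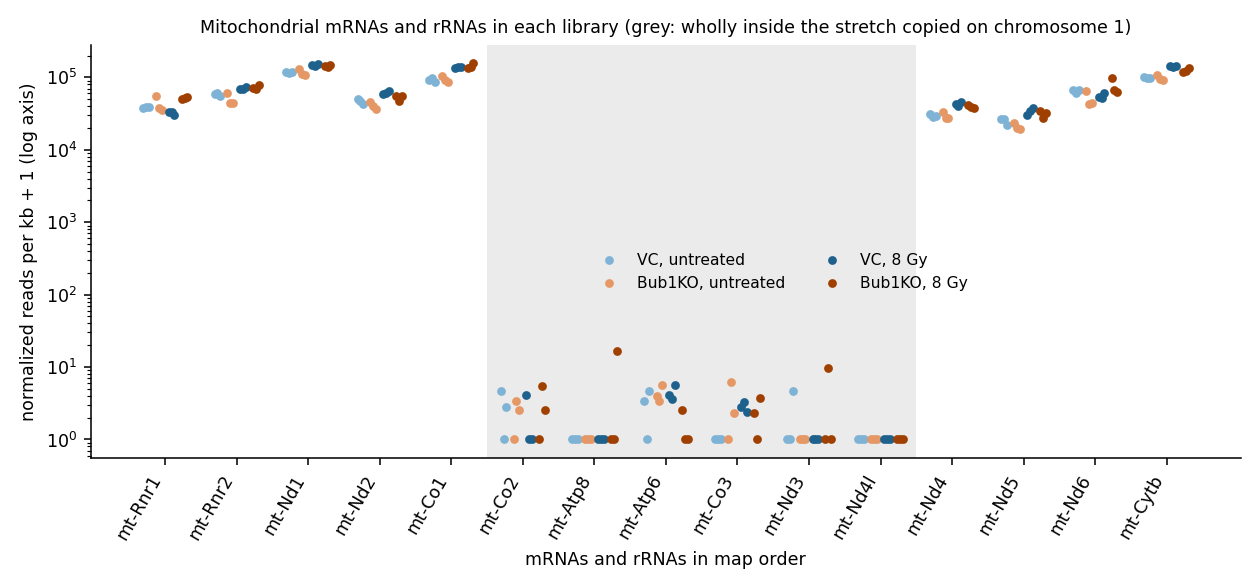
Normalized reads per kb plus 1 (log axis) for the 13 mRNAs and 2 rRNAs in map order, 1 point per library, coloured by group; grey marks the 6 mRNAs wholly inside the stretch copied on chromosome 1. The 6 sit near the bottom of the axis in every library, and the other mRNAs stand far above them.

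The other mRNAs could be compared by length. In untreated VC, normalized reads per kb averaged 116995 for mt-Nd1, 99897 for mt-Cytb, 92010 for mt-Co1, 64569 for mt-Nd6, 46735 for mt-Nd2, 29259 for mt-Nd4 and 24919 for mt-Nd5. The copied stretch holds 63.6% of mt-Nd4 and 31.3% of mt-Co1, and which part of each gene the reads came from cannot be read from the tables. Divided by the 502 and 1062 bases outside the aligned part instead, they came to 80317 and 133857 per kb, which moves mt-Co1 above mt-Nd1 and mt-Nd4 above mt-Nd6. The rRNAs stood at 38439 (mt-Rnr1, small subunit) and 58750 (mt-Rnr2, large subunit) per kb, which is what the removal of ribosomal RNA had left. Less similar nuclear copies (90% to 97.6% identity), such as Gm13340 of mt-Co1 and Gm11410 of mt-Cytb, exist for several of these genes, and reads of those copies could not be separated.

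Reads in the tRNAs differed with the neighbourhood of each gene and with the copied stretch. Of the 8 tRNAs with a gene of the same strand within 5 bases on both sides, 7 had no read in any library and mt-Tv had 2 reads. Of these 8, mt-Tk, mt-Tg and mt-Tr lie inside the copied stretch, and 4 of the 5 outside it had no read. Of the 10 that have a gene within 5 bases on both sides but lack a same-strand one on at least 1 side, 9 had reads, from 19 for mt-Ts1 to 2130 for mt-Tq over the 12 libraries, and mt-Td, inside the copied stretch, had none. The other 4 have open space on 1 side. Of these, mt-Tp, the proline tRNA, had the highest total of all tRNAs, 5359 reads. mt-Tc had 214 reads, mt-Tn had 95, and mt-Tf, outside the copied stretch, had none. All 8 light-strand tRNAs had reads, against 5 of 14 heavy-strand tRNAs. The copied stretch holds 4 of those 14, all with no read, and of the light-strand tRNAs only mt-Ts1, which had the fewest reads. The part of the neighbours and of the copies in these counts was not tested. Mature tRNAs are short and heavily modified and are poorly caught by such kits, and whether these reads came from mature tRNAs or from uncut precursors was not tested. The sources used here do not state the strand setting of the counting, so reads from the opposite strand cannot be told apart from a gene's own.

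The sequences of 3 tRNAs that the results below turn on are given 5′ to 3′ as transcribed, whole and with no base in capitals: the adjacent mt-Tt (threonine, heavy strand, chrM:15289-15355) and mt-Tp (light strand, chrM:15356-15422), which lie tail to tail, and mt-Tq (glutamine, light strand, chrM:3772-3842).
mt-Tt: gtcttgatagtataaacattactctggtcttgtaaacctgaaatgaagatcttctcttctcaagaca
mt-Tp: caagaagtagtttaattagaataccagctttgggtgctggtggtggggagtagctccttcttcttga
mt-Tq: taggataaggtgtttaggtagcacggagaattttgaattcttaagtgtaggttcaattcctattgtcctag

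**Figure D2:**
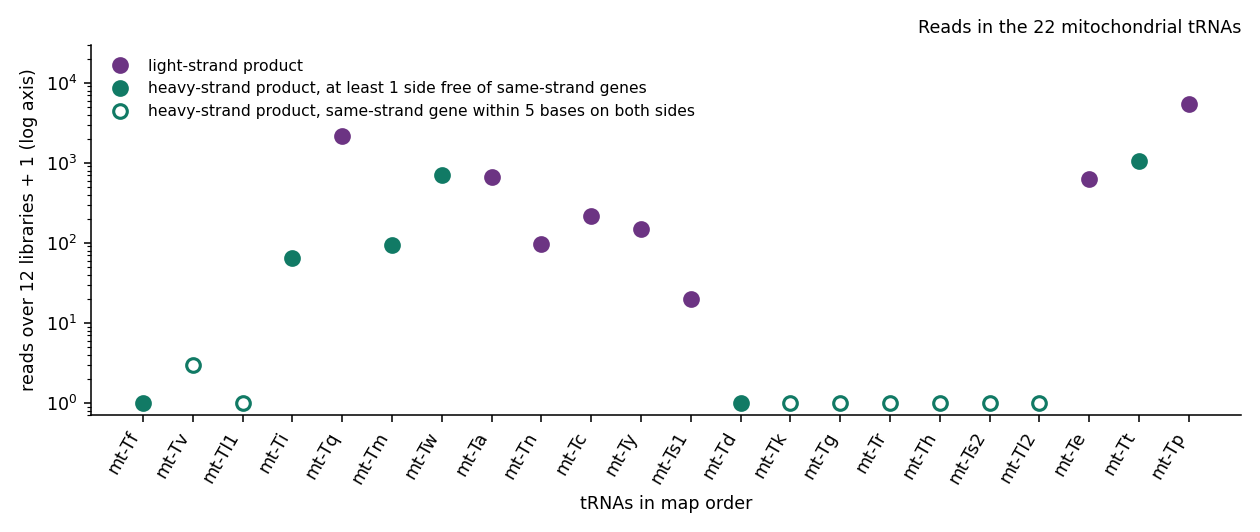
Reads over the 12 libraries plus 1 (log axis) for the 22 tRNAs in map order; purple marks light-strand and green heavy-strand products, and open symbols have a same-strand gene within 5 bases on both sides. All 8 open symbols lie at 2 reads or none, and mt-Tp is highest with 5359.

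The filter kept genes with at least 10 normalized reads in at least 3 of the 12 libraries. It kept 18 members: 7 mRNAs, 2 rRNAs and 9 tRNAs. Unless another tool, setting or source is named, tests below come from limma on log2(normalized reads + 1). They were adjusted by Benjamini-Hochberg over all 14721 genes that passed. Their log2 differences are on that scale, while fold changes are ratios of group means of normalized reads. A member was called at an adjusted p under 0.05.

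With irradiation the heavy-strand mRNAs rose in both genotypes, by 1.23- to 1.52-fold in group means. Together the mRNAs took 2.02% to 2.21% of reads in untreated VC and 3.00% to 3.29% in irradiated VC, and 1.89% to 2.32% and 2.85% to 3.08% in Bub1KO, so treated and untreated libraries did not overlap. In bulk RNA, a change in the number of cells or mitochondria that hold a transcript and a change in RNA per cell cannot be told apart. In VC, 6 of the 7 mRNAs rose and mt-Nd6 was not called. In Bub1KO all 7 rose. Over all genes tested, 53.4% were called in VC (27.6% higher and 25.8% lower) and 49.4% in Bub1KO (25.4% higher and 23.9% lower). The median log2 difference of the 6 heavy-strand mRNAs was 0.49 in VC and 0.40 in Bub1KO, against 0.02 and 0.03 over all genes tested.

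mt-Co1, the catalytic subunit of cytochrome c oxidase, had the most normalized reads among the members, not divided by length. They were 143177, 150478 and 132812 in untreated VC and 210554, 213264 and 216947 after irradiation, with 160610, 142629 and 134157 in untreated and 210434, 214510 and 241150 in irradiated Bub1KO. Every irradiated library was above every untreated one. The log2 difference was 0.59 (SE 0.09, adjusted p = 0.000129, limma) in VC and 0.61 (SE 0.09, adjusted p = 0.000104) in Bub1KO.

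mt-Cytb, the only complex III subunit made in mitochondria, stood at 116449, 113735 and 112663 in untreated VC and 162239, 160779 and 166291 after irradiation. In Bub1KO it stood at 123770, 107514 and 106001 untreated and 137833, 141918 and 152483 irradiated. Its groups separated by dose in both genotypes, by 0.51 (SE 0.08, adjusted p = 0.000143, limma) in VC and 0.36 (SE 0.08, adjusted p = 0.00231) in Bub1KO.

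The complex I mRNAs of the heavy strand moved by similar amounts. mt-Nd1 was at 111792, 111720 and 112380 in untreated VC, 139693, 137182 and 147086 in irradiated VC, 125678, 105544 and 104476 in untreated Bub1KO, and 139082, 134860 and 140588 in irradiated Bub1KO. mt-Nd2 was at 51437, 49330 and 44766, then 61495, 64044 and 66920, in VC, and at 46984, 41534 and 37791, then 57684, 49458 and 57304, in Bub1KO, untreated before irradiated. For both genes each irradiated group lay above its untreated group, with log2 differences of 0.34 and 0.40 in VC and 0.31 and 0.38 in Bub1KO. mt-Nd4 was at 42393, 38557 and 40007, then 59591, 54942 and 63590, in VC, and at 45192, 38178 and 37552, then 57029, 52958 and 51676, in Bub1KO, and differed by 0.56 and 0.42. mt-Nd5 was at 47962, 48870 and 39526, then 55770, 61757 and 69788, in VC, and at 43168, 36672 and 34809, then 63234, 50253 and 58351, in Bub1KO, and differed by 0.46 and 0.58. The adjusted p of these 8 differences lay between 0.000135 (mt-Nd4 in VC) and 0.0072 (mt-Nd1 in Bub1KO) by limma.

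mt-Nd6, the complex I subunit encoded on the light strand, did not follow the others in VC. It was at 35017, 31234 and 34282 untreated and at 27424, 26807 and 31878 irradiated, an overlapping pair of groups with a log2 difference of -0.23 (SE 0.17, adjusted p = 0.269, limma). Fitted on the 6 VC libraries alone it passed as lower, with the same difference and an adjusted p of 0.0251. No other alternative called it in VC, where its difference ranged from -0.30 to -0.04 over the alternatives. In Bub1KO it was at 33650, 22606 and 23201 untreated and at 50861, 35152 and 32432 irradiated, a log2 difference of 0.57 (SE 0.17, adjusted p = 0.0111). The untreated replicate 1 of Bub1KO lay above the lowest irradiated library. Without irradiated Bub1KO replicate 1 the difference was 0.38 with an adjusted p of 0.0607, and mt-Nd6 was no longer called.

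The rRNAs parted from each other. mt-Rnr2 was at 94667, 96007 and 88153 in untreated VC and at 108372, 110959 and 117620 after irradiation, and at 97485, 71059 and 69670, then 112989, 110776 and 122802, in Bub1KO. It was called in Bub1KO (0.56, SE 0.11, adjusted p = 0.00105, limma) but not in VC (0.27, SE 0.11, adjusted p = 0.0557), although its groups did not overlap in either. mt-Rnr1 was at 35584, 37117 and 37425 in untreated VC and lower, at 31420, 31588 and 29035, after irradiation, with no overlap and a log2 difference of -0.26 (SE 0.12, adjusted p = 0.0948). In Bub1KO it was at 52416, 36423 and 33793 untreated and at 47601, 49192 and 51718 irradiated, a log2 difference of 0.30 (SE 0.12, adjusted p = 0.0582), and untreated replicate 1 lay above all irradiated libraries. Without that library the difference was 0.50 and passed the threshold (adjusted p = 1.49e-05). With all libraries it passed by edgeR (0.0476), scaled to nuclear reads (0.0172) and with the GC trend of each library removed (0.0038). Fitted on the 6 VC libraries alone, mt-Rnr1 passed as lower (adjusted p = 0.00315) and mt-Rnr2 as higher (adjusted p = 0.00529), and mt-Rnr2 also passed in VC by edgeR and DESeq2 (0.0499 and 0.0474), scaled to nuclear reads (0.0142) and with the GC trend removed (0.00018). No other alternative called mt-Rnr1 in VC, and over the alternatives its difference there ranged from -0.28 to -0.07.

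Among the tRNAs tested no member rose with dose. In VC, 5 of the 9 fell (mt-Tq, mt-Tc, mt-Te and mt-Tp of the light strand and mt-Tt of the heavy strand) against 25.8% of all genes. In Bub1KO, mt-Tt fell, 1 of 9 against 23.9% of all genes, and the other 8 were not called, with positive differences for mt-Tw (0.28) and mt-Ty (0.39). In VC, 2 of the 9, mt-Tp and mt-Tq, remained called when scaled to nuclear reads, and the same 2 with the GC trend removed. Over all genes 2746 of 14721 and 4098 of 14707 were lower in these settings. The median log2 difference of the 7 light-strand tRNAs was -0.54 in VC and -0.48 in Bub1KO. mt-Tp was at 643.2, 579.2 and 614.9 normalized reads in untreated VC and at 323.5, 321.3 and 426.9 after irradiation, a log2 difference of -0.79 (SE 0.18, adjusted p = 0.00215, limma) with all irradiated libraries below all untreated ones. In Bub1KO it was at 543.8, 331.5 and 393.8, then 476.7, 322.6 and 363.4, which overlapped (-0.11, SE 0.18, adjusted p = 0.621).

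mt-Tt, which lies end to end with mt-Tp and is read from the other strand, fell in both genotypes. It was at 119.4, 107.1 and 121.0, then 80.4, 79.9 and 86.9, in VC (-0.49, SE 0.15, adjusted p = 0.0156, limma) and at 100.6, 79.8 and 91.6, then 51.6, 73.8 and 57.8, in Bub1KO (-0.57, SE 0.15, adjusted p = 0.00662). In VC it lost its call when scaled to nuclear reads (-0.38, adjusted p = 0.0511, limma) and with the GC trend removed (-0.30, adjusted p = 0.177). mt-Tq was at 234.6, 198.6 and 220.5, then 154.3, 141.6 and 153.4, in VC (-0.54, SE 0.16, adjusted p = 0.0104) and at 234.8, 139.8 and 162.2, then 157.9, 151.7 and 151.3, in Bub1KO (-0.18, SE 0.16, adjusted p = 0.35). The irradiated groups of mt-Tt lay below the untreated ones in both genotypes, and those of mt-Tq in VC.

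The remaining tRNAs were thinner. mt-Te was at 67.1, 43.9 and 93.2, then 51.2, 32.7 and 40.8, in VC (-0.66, adjusted p = 0.0345, limma), and at 64.0, 55.9 and 51.6, then 39.2, 41.5 and 37.8, in Bub1KO (-0.52, adjusted p = 0.0921). mt-Tc, named after its values were seen because it dipped below the filter value in 1 library, was at 32.3, 19.3 and 27.7, then 14.9, 13.6 and 16.1, in VC (-0.76, adjusted p = 0.0366). These 2 calls were the least steady: mt-Te lost its call without untreated VC replicate 1 or 3 or irradiated VC replicate 2 or 3 (adjusted p 0.0718 to 0.173), and mt-Tc without any 1 of 5 of the 6 libraries (0.0567 to 0.135). mt-Tw ranged from 45.3 to 72.2 and mt-Ta from 22.1 to 89.5 over the 12 libraries, and neither was called for dose, although mt-Tw passed in Bub1KO without untreated replicate 1 (0.49, adjusted p = 0.0337). mt-Tn and mt-Ty stayed under 17 normalized reads everywhere.

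The calls depended in part on the scale. Scaled to reads in nuclear genes, the median of all genes moved from 0.02 to 0.13 in VC and from 0.03 to 0.12 in Bub1KO, and the share of calls that were higher moved from 51.7% to 64.5% and from 51.5% to 63.7%. On that scale 9 of the 18 members were called in VC (7 higher, 2 lower, mt-Tp and mt-Tq; 52.6% of all genes) and 10 in Bub1KO (9 higher, mt-Tt lower; 48.9% of all genes), and no called member changed sign. The mitochondrial mRNAs are poor in GC (median 37.1%, with 1.01% of the tested genes lower), and the GC gap given above differed between untreated and irradiated VC. With the GC trend of each library removed, the same numbers of mRNAs were called (6 and 7), while the tRNAs called in VC dropped from 5 to 2. Over all genes the calls rose, from 7861 of 14721 to 8317 of 14707 in VC and from 7269 to 7921 in Bub1KO.

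**Figure D3:**
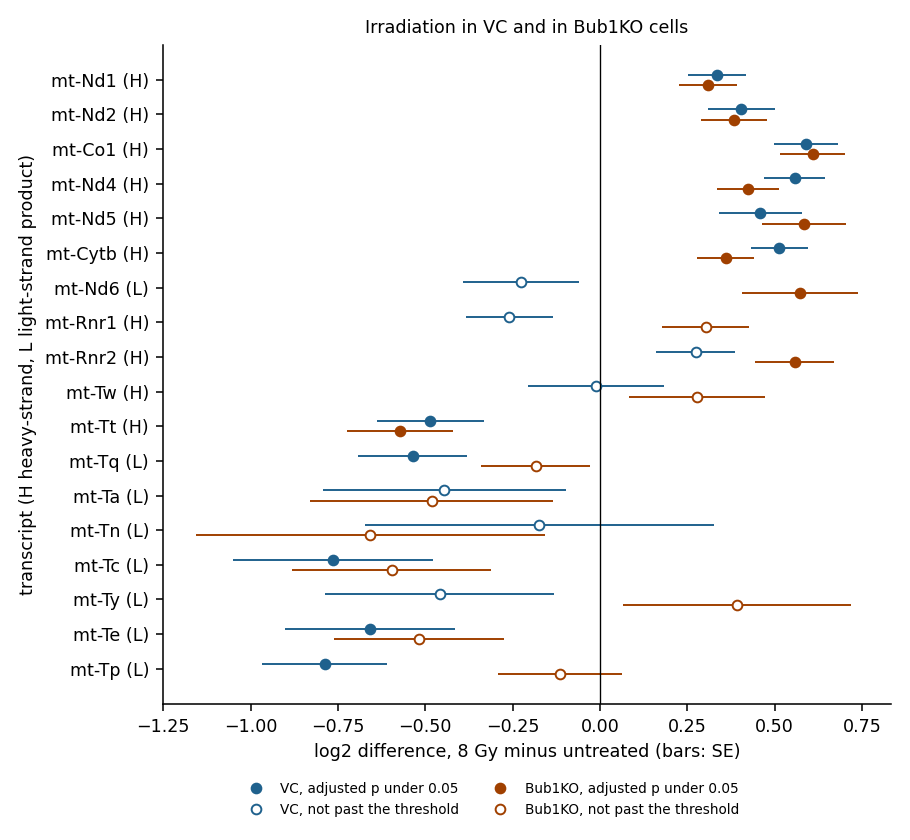
Log2 difference, 8 Gy minus untreated, with its SE, for the 18 members that passed the filter in VC (blue) and Bub1KO (brown); filled points passed an adjusted p of 0.05. The heavy-strand mRNAs lie between 0.31 and 0.61 in both genotypes, most tRNAs lie below 0, and the points of mt-Nd6, mt-Rnr1, mt-Tw and mt-Ty lie on opposite sides of 0 in the 2 genotypes.

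Without irradiation, Bub1KO and VC were not separated by the test in any member: 0 of 18 were called by limma, against 4.01% of all genes. By limma 3 had an unadjusted p under 0.05 (mt-Tp, mt-Nd6 and mt-Tt), as had 2817 of all 14721 genes. edgeR on whole reads called 0 of 18, against 4.36% of all genes. By edgeR 5 had an unadjusted p under 0.05, as had 2977 of all 14721 genes. DESeq2 called 1, mt-Tp (adjusted p = 0.0487), against 5.65% of all genes. All 9 tRNAs had negative differences, with a median of -0.56 for those of the light strand (-0.01 over all genes tested). mt-Tp had the lowest p, with every Bub1KO library below every VC library (-0.56, SE 0.17, adjusted p = 0.109), and the authors' deposited table gives it -0.54 for Bub1KO over VC with an adjusted p of 0.0329. With the GC trend removed limma also called mt-Tp (-0.55, adjusted p = 0.0277). The result turned on Bub1KO untreated replicate 1, the library that stood apart: without it 7 of 18 members were called, all lower in Bub1KO (mt-Nd2, mt-Nd5, mt-Nd6, mt-Rnr2, mt-Ta, mt-Tp and mt-Tq), with 18.6% of all genes called. In that fit mt-Nd6 differed by -0.55 (adjusted p = 0.00108) and mt-Tp by -0.76 (adjusted p = 0.00105).

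After irradiation, mt-Rnr1 was the member with the lowest adjusted p between the genotypes. Its irradiated values, given above, were 29035 to 31588 in VC and 47601 to 51718 in Bub1KO, with a mean of 30681 ± 1428 (SD, n = 3) and 49504 ± 2076 (SD, n = 3), 1.61-fold higher in Bub1KO. The log2 difference was 0.69 (SE 0.06, adjusted p = 5.11e-06, limma), and the authors' deposited table gives 0.69 with an adjusted p of 7.16e-06. Its partner mt-Rnr2 did not follow: the means were 112317 and 115522, with a log2 difference of 0.04 (SE 0.07, adjusted p = 0.695). The call of mt-Rnr1 held in every alternative and with each library left out.

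By limma 2 further members were called, so that 3 of 18 were called in all (2 higher and 1 lower), against 30.7% of all genes (14.3% higher and 16.4% lower). edgeR on whole reads called 4 of 18, 2 higher and 2 lower (30.7% of all genes), and DESeq2 called 3, 1 higher and 2 lower (29.6% of all genes). mt-Nd6 was higher in Bub1KO, with all 3 of its libraries above the VC libraries (0.44, SE 0.13, adjusted p = 0.0216, limma), and mt-Nd2 was lower, with all 3 below (-0.23, SE 0.07, adjusted p = 0.026). Both calls were weak: mt-Nd6 lost its call without irradiated VC replicate 1 or 2 (adjusted p = 0.0664 and 0.054), and mt-Nd2 without irradiated VC replicate 3 or irradiated Bub1KO replicate 2 (0.087 and 0.139). DESeq2 on whole reads did not call mt-Nd6 (adjusted p = 0.115), and the authors' deposited table gives adjusted p-values of 0.042 for mt-Nd6 and 0.0912 for mt-Nd2. mt-Cytb was lower with no overlap but missed the threshold by limma (-0.18, SE 0.07, adjusted p = 0.0592) and passed it by edgeR (0.037) and DESeq2 (0.00682). The tRNAs mt-Ta and mt-Tt missed it by limma (-0.70 and -0.44, adjusted p = 0.0577 and 0.0581) and passed without irradiated Bub1KO replicate 1 (mt-Ta, 0.00855) or 2 (mt-Tt, 0.0296). mt-Co1, mt-Nd1, mt-Nd4 and mt-Nd5 differed by -0.14 to 0.05.

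**Figure D4:**
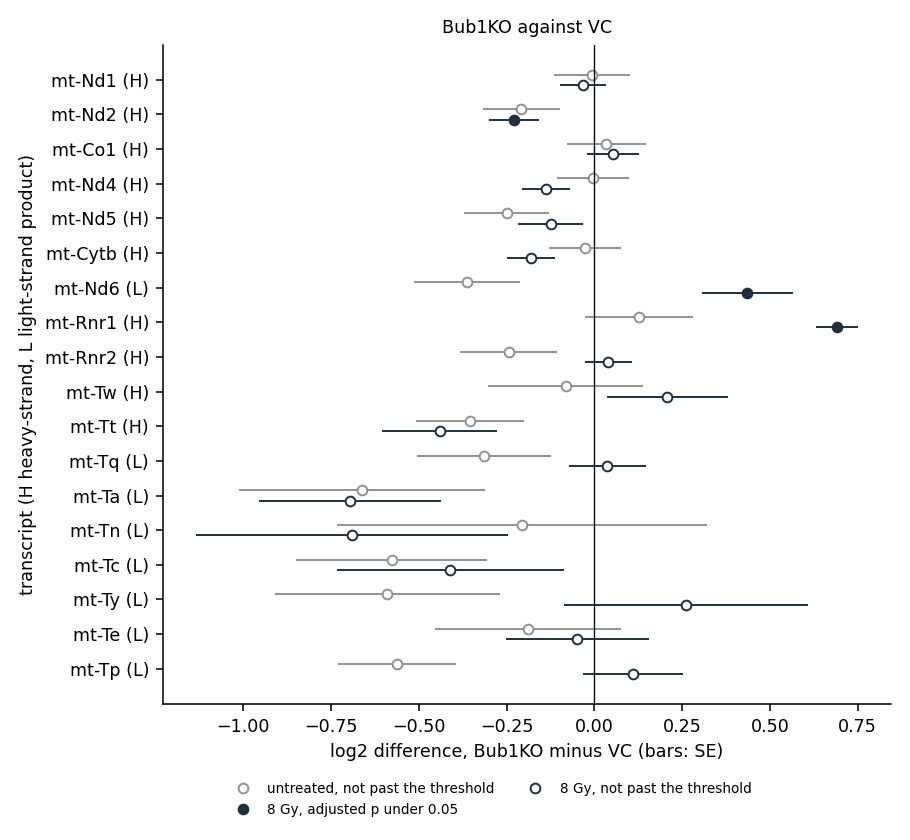
Log2 difference, Bub1KO minus VC, with its SE, for the 18 members that passed the filter, untreated (grey) and after 8 Gy (black); filled points passed an adjusted p of 0.05. mt-Rnr1, mt-Nd6 and mt-Nd2 are filled after 8 Gy, at 0.69, 0.44 and -0.23, and no untreated point is filled.

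Whether the genotype difference itself changed with dose was tested as an interaction over all 12 libraries. None of the 18 members passed by limma or by edgeR (0.55% of all genes called by either tool), and DESeq2 called mt-Nd6 alone (2.12% of all genes called). By limma and by edgeR 3 members had an unadjusted p under 0.05, as had 1784 and 1902 of all 14721 genes. The lowest p-values by limma were those of mt-Nd6 (0.80, SE 0.23, adjusted p = 0.172), mt-Rnr1 (0.56, SE 0.18, adjusted p = 0.199) and mt-Tp (0.67, SE 0.25, adjusted p = 0.287). So the call of mt-Rnr1 after irradiation and not before it is not shown to be a difference between the doses. Without Bub1KO untreated replicate 1, 5 members passed, all more positive after irradiation: mt-Nd6 (0.98), mt-Rnr1 (0.76), mt-Rnr2 (0.44), mt-Tp (0.87) and mt-Tq (0.56), with 9.83% of all genes called.

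Ratios of members within a library do not depend on the size factor, and they are given as values with no test. mt-Rnr1 reads per 100 mt-Rnr2 reads stood before irradiation at 37.6, 38.7 and 42.5 (VC) and at 53.8, 51.3 and 48.5 (Bub1KO), and after it at 29.0, 28.5 and 24.7 (VC) and at 42.1, 44.4 and 42.1 (Bub1KO). At each dose all Bub1KO libraries lay above all VC libraries, and in each genotype all irradiated libraries lay below all untreated ones. Bub1KO untreated replicate 1, which stood apart in single genes, was near its partners in this ratio. Both RNAs are targets of the ribosomal RNA removal, and other rows that catch ribosomal RNA varied too (Gm42418 2.48% to 4.43% and Lars2 0.143% to 0.439% of reads). Their part in the ratio was not tested.

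For the light strand, mt-Nd6 reads per 100 heavy-strand mRNA reads were 6.82, 6.09 and 7.11 in untreated VC, 3.98, 3.87 and 4.36 in irradiated VC, 6.17, 4.79 and 5.10 in untreated Bub1KO and 7.64, 5.46 and 4.62 in irradiated Bub1KO. Dose separated this ratio in VC and not in Bub1KO. Light-strand tRNA reads per 10000 heavy-strand mRNA reads stood before irradiation at 21.3, 18.1 and 22.2 (VC) and at 17.9, 12.6 and 14.8 (Bub1KO), and after it at 8.94, 8.36 and 9.91 (VC) and at 11.3, 9.04 and 8.64 (Bub1KO). Irradiated libraries lay below untreated ones in both genotypes, and the irradiated groups overlapped each other. Untreated Bub1KO lay below untreated VC in all 3 libraries. Within the light strand, mt-Tp reads per 1000 mt-Nd6 reads ran from 17.9 to 18.5 in VC and 14.7 to 17.0 in Bub1KO before irradiation, and from 11.8 to 13.4 in VC and 9.18 to 11.2 in Bub1KO after it, which are 4 ranges that do not overlap.

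**Figure D5:**
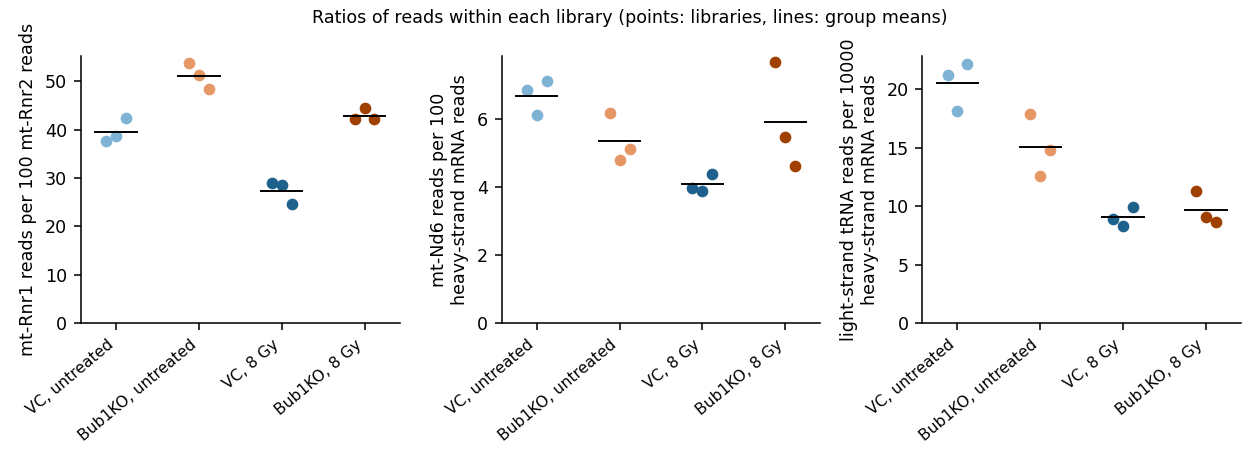
Reads of mt-Rnr1 per 100 of mt-Rnr2, of mt-Nd6 per 100 of the heavy-strand mRNAs, and of the light-strand tRNAs per 10000 of the heavy-strand mRNAs, 1 point per library with the group mean as a line. The first panel separates the genotypes at each dose, and the third separates the doses in each genotype.

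The make-up of the mRNA reads shifted too. mt-Nd6 took 6.26% ± 0.46 (SD, n = 3) of the reads of the 7 mRNAs in untreated VC and 3.91% ± 0.24 in irradiated VC. In Bub1KO it took 5.08% ± 0.65 untreated and 5.57% ± 1.38 irradiated. mt-Co1 took 26.5% ± 1.03 (SD, n = 3) of the reads of the 7 mRNAs in VC and 28.2% ± 0.56 in Bub1KO before irradiation, and 29.2% ± 0.64 in VC and 31.3% ± 1.76 in Bub1KO after it. mt-Nd2 took 9.04% ± 0.36 and 8.14% ± 0.25 untreated, and 8.76% ± 0.17 and 7.72% ± 0.39 irradiated, in VC and Bub1KO. The Bub1KO ranges of mt-Nd2 lay below the VC ranges at both doses. mt-Co1 reads per 100 mt-Cytb reads were 151.2 to 158.1 in irradiated Bub1KO and 117.9 to 132.7 in the other 9 libraries.

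Nuclear genes that make or handle these transcripts were taken from 4 lists with 41 genes, of which 39 were tested. After irradiation 21 were lower and 3 higher in VC, and 18 lower and 2 higher in Bub1KO. The called shares were 61.5% and 51.3%, against 53.4% and 49.4% of all genes tested, of which 25.8% and 23.9% were lower. These are on the authors' scale, on which all genes split nearly evenly. Scaled to nuclear reads, 12 were lower and 4 higher in VC, and 15 lower and 5 higher in Bub1KO. On that scale 2746 of all 14721 genes were lower and 4998 higher in VC, and 2618 lower and 4587 higher in Bub1KO. Of the 3 decay genes all were lower in VC and 2 in Bub1KO. The mRNA of Pnpt1 averaged 752.3 and 697.7 normalized reads untreated and 487.0 and 453.8 irradiated in VC and Bub1KO (-0.61 and -0.62, adjusted p = 0.00144 and 0.00145, limma). Rexo2, which degrades short RNA fragments in mitochondria, differed by -0.56 and -0.55 (adjusted p = 0.0003 and 0.000393). Supv3l1 was called in VC (-0.21, adjusted p = 0.027) and not in Bub1KO (-0.15, adjusted p = 0.101), and lost its call in VC without untreated replicate 3 or any irradiated replicate (0.0615 to 0.0945), and when scaled to nuclear reads (-0.10, adjusted p = 0.269).

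Of the processing and stability list 10 of 15 were lower in each genotype, against 25.8% of all genes in VC and 23.9% in Bub1KO. Lrpprc, which stabilises the mRNAs, fell by 0.43 and 0.46 (adjusted p = 0.000489 and 0.000362, limma) in VC and Bub1KO, and Fastkd3, an RNA-binding FASTK family gene, by 0.60 and 0.79. Tbrg4 of the same family fell by 0.43 and 0.61. Of the transcription list 3 of 10 were lower in each, near the 25.8% and 23.9% of all genes that were lower. Tfam, which packages the DNA and starts transcription, averaged 1452 and 1472 untreated and 1226 and 1193 irradiated (-0.24 and -0.30, adjusted p = 0.0158 and 0.00538), but not past the threshold in VC when scaled to nuclear reads (adjusted p = 0.172) or without irradiated VC replicate 2 (0.0507). With the GC trend removed it was called in neither genotype (-0.08 and -0.14, adjusted p = 0.262 and 0.0507). Mterf3 fell by 0.37 and 0.72. Tk2, the mitochondrial thymidine kinase of the nucleotide supply list, rose by 0.53 and 0.76.

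Polrmt, the polymerase itself, was not called for dose (0.41 and -0.09, adjusted p = 0.266 and 0.826, limma), but fitted on the 6 VC libraries alone it was called higher in VC (adjusted p = 0.0199). Its mean went from 370.2 to 490.3 in VC and from 363.9 to 309.2 in Bub1KO, and without Bub1KO untreated replicate 1 it was called lower in irradiated Bub1KO (-0.58, adjusted p = 0.00187). For the interaction 0 of the 39 were called by limma (0.55% of all genes). Polrmt was at -0.50 (adjusted p = 0.696, limma) and Supv3l1 at 0.06 (adjusted p = 0.883), so neither is shown to respond to dose differently by genotype. Without Bub1KO untreated replicate 1, 4 of 39 were called for the interaction, all negative, against 9.83% of all genes. Polrmt was among these 4 (-0.99, adjusted p = 0.00281). Between genotypes after irradiation, 7 of the 39 were lower in Bub1KO and 4 higher, 28.2% in all against 30.7% of all genes (16.4% lower and 14.3% higher). Polrmt (-0.66, adjusted p = 0.000622), Tbrg4 (-0.36, adjusted p = 0.000957) and Trnt1, which adds the CCA end to tRNAs (-0.37, adjusted p = 0.00107), were lower (with all 12 libraries in the fit Polrmt and Tbrg4 were not called, at 0.157 and 0.063), and Pnpt1, Supv3l1, Tfam and Lrpprc were not called. Without irradiation 0 of 39 were called by limma and by edgeR and DESeq2 on whole reads. By each of these 4 of the 39 had an unadjusted p under 0.05. Over all genes 2817 and 2977 of 14721 had one by limma and edgeR, and 2346 genes by DESeq2. Without Bub1KO untreated replicate 1, 7 of 39 were called there, 5 lower and 2 higher, 17.9% against 18.6% of all genes.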

How the data were processed

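RNA was measured in 12 libraries grouped by the genotype and treatment labels. The tools Trim Galore, cutadapt, STAR, SAMtools and HTSeq and the build GRCm38.p6 (mm10) are named in the submitters' processing notes, without versions. The authors deposited a signal per gene and library, which per the file headers and values is the read count divided by 1 size factor per library. The deposited tables also hold the authors' log2 fold change, a test score and p-values. Whole reads were recovered for 100.0% of values above 0 (tolerance 0.01 of a read). limma 3.58.1 (R 4.3.3, trend) was run on log2(value + 1), genotype comparisons on their 6 libraries and dose comparisons and the interaction on all 12. edgeR 4.0.16 and DESeq2 1.42.0 on whole reads were alternatives. The limma fits were tested on simulated data. There the interaction recovered 23.4% of genes set to differ by 0.5 log2, and the other comparisons 64.7% to 75%. The simulation gave every library the same spread, with none that stood apart, and changed only genes with more reads than most of the tested tRNAs. So these shares do not give the recovery for most tRNAs, or with a library such as Bub1KO untreated replicate 1. Copies were sought with blastn 2.17.0 among GENCODE M21 transcripts. Text names all mRNAs and rRNAs, tRNAs at 10 or more in every library, 5 fixed nuclear genes, and up to 3 called nuclear list members per comparison with the lowest adjusted p. One marker gene of the lists is not reported here. Members and lists were chosen with earlier results of these data known. No label pairs the libraries by replicate number. Deviations from the group mean in libraries of the same number correlated over genes at -0.193 to 0.196 between groups.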

Additional observations from a re-analysis of the deposited data

How the results depend on the processing

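Of 1350 values of the 18 members under the alternatives, 1283 stayed on their side of the threshold (58 of them values not called either time that changed sign), 32 lost a call, 35 gained one and none of the called values changed sign. Leaving out 1 library in turn gave 0 to 3 called mRNAs untreated between genotypes, 1 to 2 after irradiation, 6 to 6 for dose in VC, 6 to 7 in Bub1KO and 0 to 1 for the interaction. Over all genes it gave 172 to 2736, 3045 to 4744, 6733 to 7120, 6141 to 7567 and 33 to 1447 calls. Untreated between genotypes, all genes called changed from 591 to 329 without a filter, 1769 with all 12 libraries in the fit, and 1542 with the GC trend removed. After irradiation the 2 called mRNAs became 0 without a filter and 0 with all 12 libraries, and the 4512 genes became 2062 and 2105. For the interaction, DESeq2 gave 1 mRNA and 273 genes and the GC correction gave 1 and 386, against 0 and 81. No label pairs the libraries by replicate number. A replicate block in limma gave 312 genes untreated, 1 mRNA after irradiation (mt-Nd2 at adjusted p = 0.0501) and 47 genes for the interaction. The block took mt-Tc in VC over the threshold (0.0563), brought mt-Ta after irradiation under it (0.0428) and changed no other member's call. Summed mRNA reads changed by 0.545 log2 with dose in VC, and by 0.473 over the mRNAs with no near-identical copy. Leaving out 1 library gave, for summed mRNA, rRNA and tRNA reads, -0.138 to 0.014, -0.295 to 0.00154 and -0.645 to -0.292 between untreated genotypes, -0.0792 to -0.012, 0.163 to 0.229 and -0.129 to 0.0744 after irradiation, 0.503 to 0.571, 0.2 to 0.259 and -0.625 to -0.453 for dose in VC, and 0.477 to 0.629, 0.433 to 0.729 and -0.258 to 0.0944 in Bub1KO. The cause of these changes was not tested. The low reads of the tRNAs limit what the depth can show, and the mRNAs inside the copied stretch cannot be compared at all.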

Other observations

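The nuclear copies of the mitochondrial mRNAs on chromosome 1 held few reads, but 5 of the 7 passed the filter. Gm28661 was at 92.0, 94.2 and 81.9 normalized reads in VC and 59.97, 57.6 and 42.1 in Bub1KO before irradiation, and 101.0, 111.6 and 140.5 in VC and 133.1, 76.9 and 77.7 in Bub1KO after it. With dose it was called higher in Bub1KO (0.81, SE 0.22, adjusted p = 0.00682, limma), as were Gm28438 (0.57, adjusted p = 0.00616) and Gm29216 (1.14, adjusted p = 0.00927). Over all genes tested 49.4% were called with dose in Bub1KO (25.4% higher) and 53.4% in VC. None of the 5 was called in VC or between genotypes, where 4.01% of all genes were called untreated and 30.7% irradiated. The interaction was not called for any of the 5 either, so their dose differences are not shown to depend on genotype. Reads that match the mitochondrial original exactly cannot be assigned to these rows with certainty.

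Irradiated Bub1KO replicate 1 had the highest mt-Nd6 of all libraries (50861 normalized reads). It also had the highest values of Gm28438 (206.4), Gm29216 (140.3), Gm28437 (77.4) and Gm28439 (10.3). Gm10925 (143.7), Gm28661 (140.5) and Gm10222 (9.65) were highest in irradiated VC replicate 3.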
